A study of Caenorhabditis elegans with 8 samples.

Results

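The miR-51 family of Caenorhabditis elegans comprises cel-miR-51, cel-miR-52, cel-miR-53, cel-miR-54, cel-miR-55 and cel-miR-56, and its probes were chosen by these names among the 156 probes with a C. elegans name on the array. All 6 members had a probe, and each probe was printed as 4 spots on each of 8 arrays. Total RNA came from pools of whole worms of 2 strains, both loaded as dauer larvae, the arrested larval stage that resists stress, and each strain was studied in 4 conditions. LS292 carries dys-1(cx18) I, a mutation of the gene for dystrophin, a protein of the muscle membrane, and N2 is the wild type. In static flight the worms of each strain spent 16.5 days at 23 °C on the Shenzhou-8 spacecraft under space radiation (1.92 mGy) and microgravity. On the 1g centrifuge they flew for as long at the same temperature under radiation (2.27 mGy) with gravity supplied by rotation. The ground control ran for 16.5 days at 23 °C in a static slot of the same hardware, and worms of these 3 conditions were collected after 7 h. The no-transport control, which the labels title a transport control, stayed in an incubator and did not travel to the launch site, and the labels give it no dose, duration or temperature. Each strain and condition had 1 array, and the labels state that technical but not sample repeats were made, so p-values below measure only the spread between these arrays.

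MicroRNAs are short RNAs that bind messenger RNAs mainly through a seed near their starting end and lower the output of the bound gene. The 6 members share one seed and are related to the miR-99 and miR-100 family of vertebrates. In worms they act redundantly: loss of the whole family blocks embryonic development and leaves the pharynx, the feeding organ, unattached, in part through the cadherin gene cdh-1, and the family also adjusts developmental timing. By the RefSeq annotation of WBcel235, used only for names and neighbours, mir-54, mir-55 and mir-56 lie in a row inside the protein-coding gene F09A5.3, with a further miRNA gene, F09A5.15, overlapping mir-55. The genes mir-51 and mir-53 neighbour each other, and mir-52 lies apart from the others, overlapping the non-coding gene Y37A1B.335. Names are those of the deposited file. Probe sequences were not used here, so whether the RNA of one member binds the probe of another was not tested, and levels are compared only within a probe.

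Between 11 and 19 of the 156 named probes per array exceeded their local background by 50 arbitrary units or more in the median of their 4 spots, and 20 reached this level on at least 2 arrays. That minimum of 50 was reached by 0 to 3 of 96 empty spots per array, and the median of the empty spots lay between -1.5 and 3. The N2 static flight array stood apart: 25.15% of its spots lay in a local background above 3 times the median of the array, against 4.474% to 12.63% on the other arrays, and in blocks 25 to 36 the share was 61.36%. The fitted differences that it enters, the main exact tests, the 2-fold pair counts and the member correlations are therefore given with and without it. Comparisons of other conditions use it only for their error and are given with it, as are the counts of spots that do not overlap. Such high-background spots made up 17 of the 192 spots of the family (8.854%), against 10.76% of all named spots. Among miRNAs of single tissues, that of neurons (miR-124) reached 142, those of muscle (miR-1) and intestine (miR-60) stayed at or below 11.5 and 6, and 0 of the 8 embryonic miRNAs of the miR-35 family reached 50 on 2 arrays.

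Of the 6 members, miR-55 reached 50 on 8 of 8 arrays, miR-56 and miR-52 on 7 each, and miR-51, miR-53 and miR-54 on none. The spots divided in the same way. A value of at least 50 was read on 29 of 32 spots of miR-55, 25 of 32 of miR-56 and 23 of 32 of miR-52, and on 0 of 32 spots of each of the other members. The 3 spots of miR-55 below 0 all had a high local background, as did all 3 such spots of miR-52 and both such spots of miR-56. For comparison, 3 of the 7 let-7 family probes, whose miRNAs time larval transitions, reached 50 on 2 or more arrays. The neighbouring genes were thus not all detected: mir-55 and mir-56 gave signal and mir-54, in the same row, did not pass 50 on any array.

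**Figure D1:**
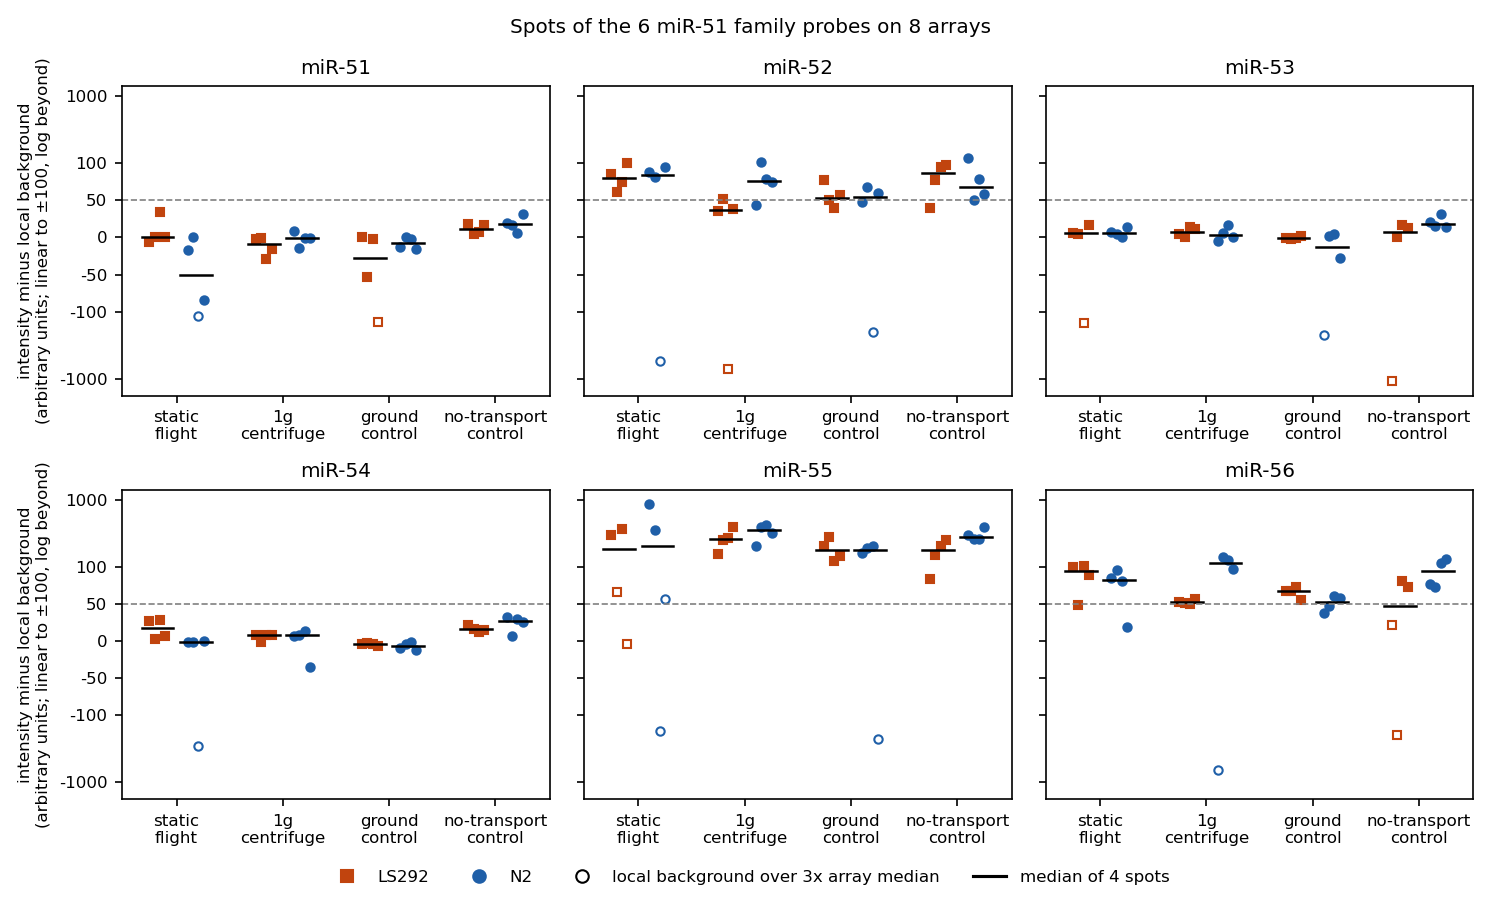
Background-subtracted intensity (arbitrary units, linear to ±100 and logarithmic beyond) of each of the 4 spots of the 6 family probes in 4 conditions, with LS292 as squares, N2 as circles, open symbols for high-background spots, bars for the median of the 4 spots and a dashed line at 50. Every spot of miR-51, miR-53 and miR-54 lies below the line, with highest values of 34, 31 and 32, and every spot below the linear part of the axis is an open symbol.

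MiR-51, miR-53 and miR-54 lay near the level of the empty spots. In LS292, the spot medians of miR-54 were 17 in static flight, 8 on the 1g centrifuge, -4 in the ground control and 15.5 in the no-transport control. In N2 they were -1.5, 7.5, -6.5 and 27 in the same order of conditions. MiR-54 exceeded the 95th percentile of the array's empty spots on 4 of 8 arrays, and both ground control arrays were its lowest in their strain. MiR-53 had spot medians of 5.5, 7.5, -1 and 7 in LS292 and of 6, 3, -12.5 and 18 in N2, again in that order. It exceeded the empty spots' percentile on 2 arrays. MiR-51 had 1, -9, -27.5 and 12 in LS292 and -50.5, -1, -7.5 and 18.5 in N2, and exceeded it on 1 array. On the N2 no-transport array these members had their highest spot medians. That array also had the highest median over all named probes (19.25, against -6.5 to 8.75 on the others), and the highest median of the empty spots (3). Whether these low readings reflect the miRNAs was not tested, and no fold change is given for members below 50 on both arrays of a pair.

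MiR-55, the only family member at 50 or more on every array, had its highest spot median in N2 worms from the 1g centrifuge. Its spot medians in LS292 were 181 in static flight, 256 on the 1g centrifuge, 176 in the ground control and 175 in the no-transport control. In N2 they were 205 in static flight, 355.5 on the 1g centrifuge, 176 in the ground control and 276.5 in the no-transport control. Over all spots the 1g centrifuge was thus the highest of the 4 conditions in each strain, an order that turned without high-background spots, and the LS292 arrays were no higher than the N2 arrays in any condition. The spread of the 4 spots limits this order. On the 1g centrifuge the spots ran from 156 to 388 in LS292 and from 203 to 411 in N2, with SDs of 95.6 and 94.3. In static flight they were -4, 66, 296 and 364 in LS292 (SD 177) and -171, 56, 354 and 872 in N2 (SD 451), and these were the widest spreads of miR-55 in each strain. The other arrays read it more closely, apart from 1 spot in the N2 ground control. In the ground control they ran from 119 to 278 in LS292, and in N2 they were -222, 162, 190 and 201. In the no-transport control they ran from 83 to 247 in LS292 and from 258 to 388 in N2. Before any scaling, the spot ranges of 3 of the 12 pairs of arrays (8 within a strain, 4 within a condition) did not overlap: N2 1g centrifuge over N2 ground control, N2 ground control under N2 no-transport control, and LS292 under N2 in the no-transport control. No share over all named probes is given for spots before scaling, so these 3 pairs stand without a background. Neighbours in the order of the 8 levels overlapped in their spots at every step.

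Static flight values of miR-55 rested on few clean spots. With high-background spots left out, its medians in LS292 were 330 (2 spots left) in static flight, 256 on the 1g centrifuge, 176 in the ground control and 175 in the no-transport control. In N2 they were 613 (2 spots left), 355.5, 190 (3 spots left) and 276.5 in the same order. Static flight, and not the 1g centrifuge, was then highest in each strain, and both flight arrays lay above both ground arrays. Without any background subtraction the foreground medians were 341, 310, 264.5 and 221.5 in LS292 and 474, 407, 268 and 341.5 in N2, which likewise put static flight first and flight over ground in each strain. The median local background around these spots was itself highest in static flight, at 162 in LS292 and 244 in N2, against 46.5 to 88.5 elsewhere, and its part in the foreground order was not tested. Leaving out these spots and reading the foreground alone were chosen for this measure after the data had been seen.

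**Figure D2:**
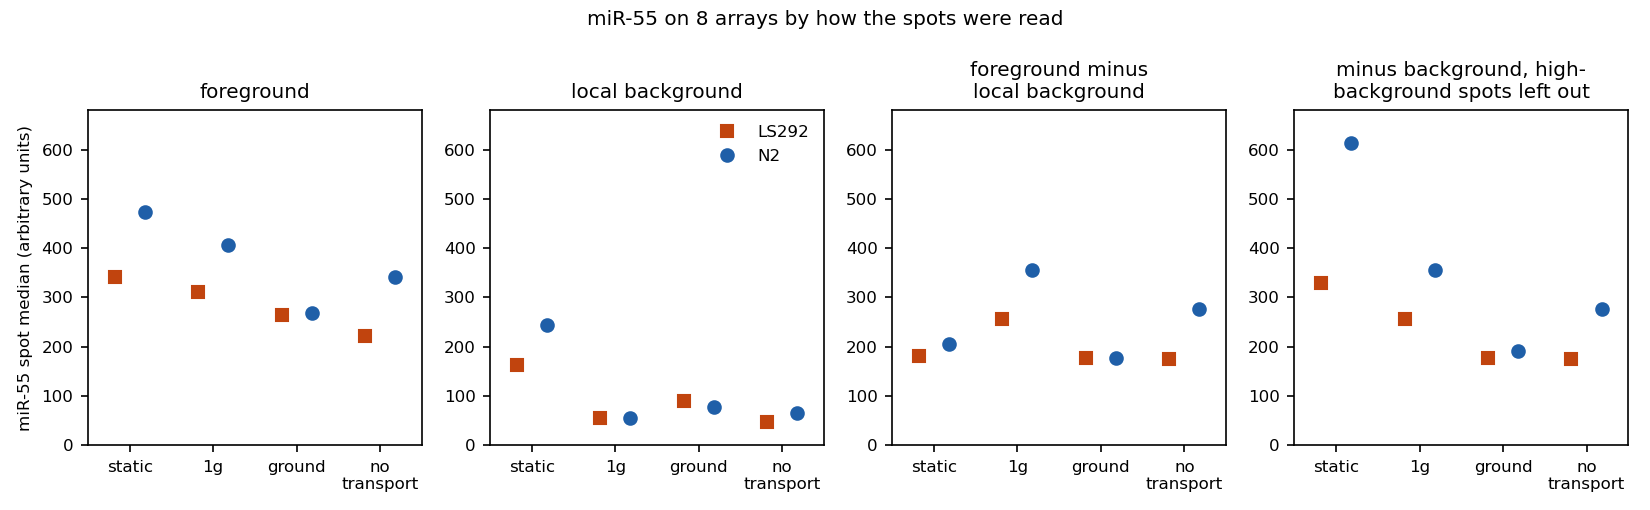
Median over the spots of miR-55 (arbitrary units) in 4 conditions for LS292 (squares) and N2 (circles), read as foreground, local background, foreground minus local background, and the last without spots of high local background. The 2 static flight arrays carry the highest local background, 162 and 244, and move to 330 and 613 in the last panel, where 2 spots remained on each.

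MiR-56 had spot medians in LS292 of 94.5 in static flight, 52 on the 1g centrifuge, 67 in the ground control and 46.5 in the no-transport control. In N2 the values were 82, 111.5, 52.5 and 94.5 in the same order. The strains thus differed most on the 1g centrifuge and in the no-transport control, where LS292 was lower. Within LS292 static flight was the highest condition, and within N2 the 1g centrifuge was. Some arrays read this probe closely, with spots from 50 to 57 in LS292 on the 1g centrifuge (SD 3.1) and from 55 to 72 in the LS292 ground control (SD 7.23). Others did not, with spots of -662, 97, 126 and 140 in N2 on the 1g centrifuge and of -198, 21, 72 and 81 in the LS292 no-transport control. Without high-background spots the last of these arrays read 76.5 (2 spots left), so that miR-56 then reached 50 on all 8 arrays.

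MiR-52, from the gene that lies apart, gave spot medians in LS292 of 79.5 in static flight, 36.5 on the 1g centrifuge, 53.5 in the ground control and 86 in the no-transport control. In N2 the values were 84.5, 76.5, 54 and 68 in the same order. Apart from the low LS292 1g centrifuge array, which had spots of -705, 35, 38 and 52, the medians lay between 53.5 and 86. The difference of LS292 from N2 was 5 units or less in static flight and in the ground control. Raising the minimum to 100 left 1 family member detected on 2 or more arrays, miR-55, since miR-56 reached 100 on 1 array and miR-52 on none.

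**Figure D3:**
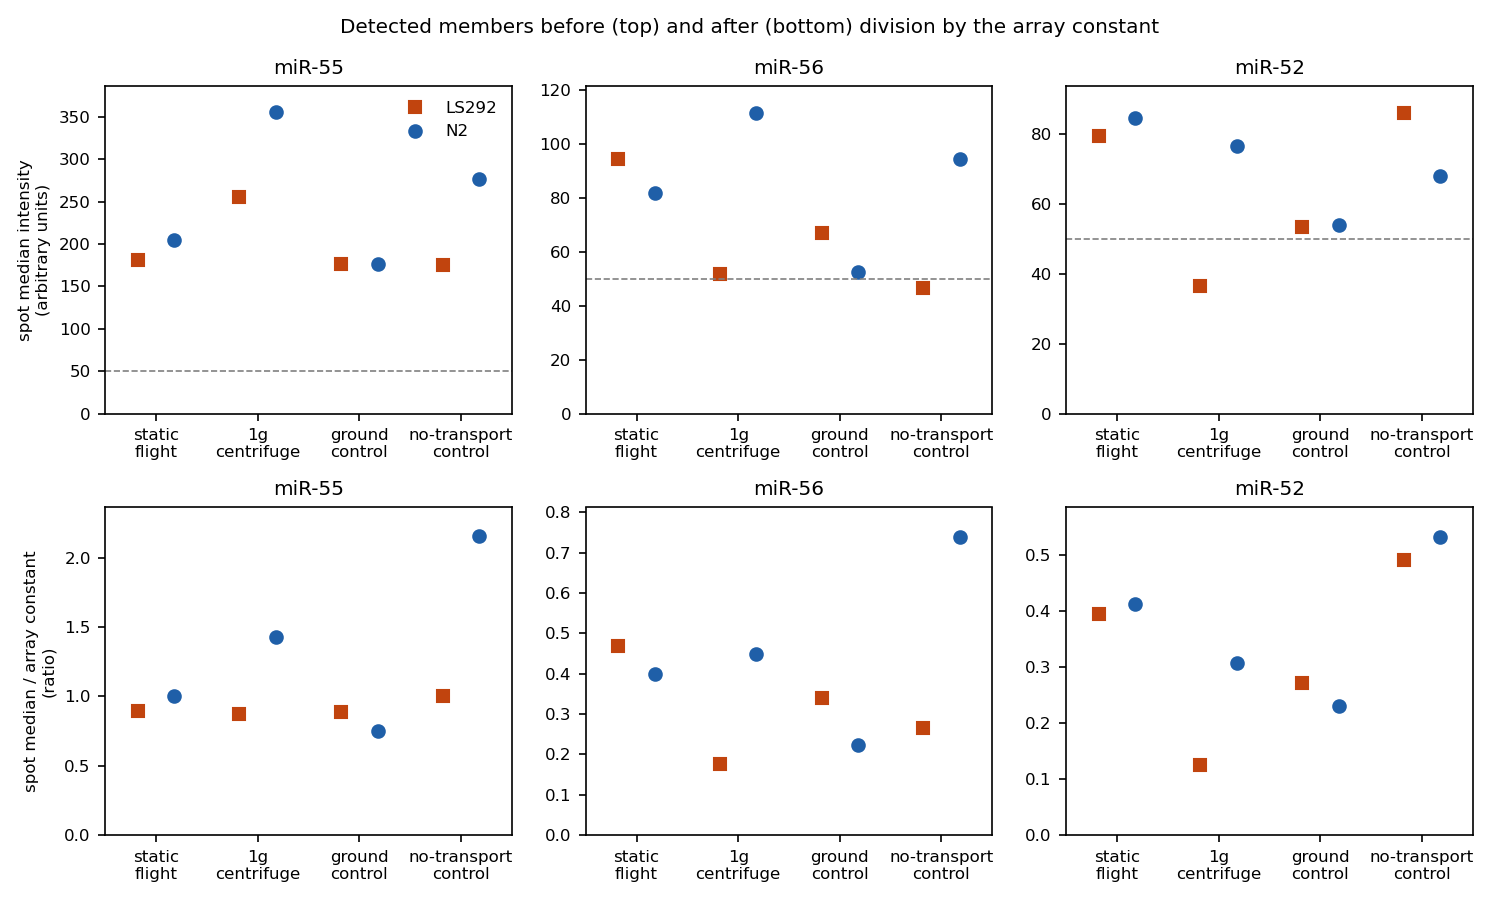
Spot medians of miR-55, miR-56 and miR-52 (upper row, arbitrary units, dashed line at 50) and the same divided by the array constant (lower row, ratio) in 4 conditions for LS292 (squares) and N2 (circles), 1 array per point. N2 miR-55 is highest on the 1g centrifuge before division (355.5) and highest in the no-transport control after it (2.16).

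Scaling between arrays changed the order of conditions. The authors' normalized values divide each spot median by 1 constant per array, which equalled the median of the 5 named probes at 50 or more on every array, and miR-55 is among them. On the N2 static flight and LS292 no-transport arrays miR-55 was itself that median, so its scaled value was 1 by construction. Scaled miR-55 was 0.898 in static flight, 0.871 on the 1g centrifuge, 0.891 in the ground control and 1 in the no-transport control of LS292. In N2 it was 1, 1.43, 0.751 and 2.16 in the same order. LS292 thus spanned a narrow range and N2 a wide one. The N2 no-transport array had the lowest constant, 128, set by let-7, against 175 to 294 on the others. Scaled miR-56 was 0.469, 0.177, 0.339 and 0.266 in LS292 and 0.400, 0.449, 0.224 and 0.738 in N2. Scaled miR-52 was 0.395, 0.124, 0.271 and 0.491 in LS292 and 0.412, 0.308, 0.230 and 0.531 in N2. All detected members were highest on the N2 no-transport array after this scaling, whereas before scaling the highest array was N2 1g centrifuge for miR-55 and miR-56 and LS292 no-transport control for miR-52. With high-background spots left out, in the members and in the constant, the N2 no-transport constant was 240.5 in place of 128, and the highest scaled values moved to N2 static flight for miR-55 (1.43), N2 1g centrifuge for miR-56 (0.453) and LS292 no-transport control for miR-52 (0.491).

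Across pairs of arrays with both at 50 or more, the detected members were 2-fold apart after scaling in 7 of 31 pairs (22.6%), against 36 of 122 pairs over all named probes (29.5%). The shares of members and of all named probes were 32.3% and 32.8% with miR-55 left out of the constant, 15.2% and 29.4% without high-background spots, and 31.8% and 33.3% without the pairs of the N2 static flight array. The members' share was thus not above the background under any of these readings. Their 4 scaled spots did not overlap in 7 of 31 pairs (22.6%), against 20 of 122 (16.4%). These pairs have no replicate check. No member at 50 or more on both arrays was 2-fold apart in static flight over ground control (background 27.3% in LS292 and 0% in N2). Nor was any in LS292 1g centrifuge over ground control (37.5%) or in LS292 ground control over no-transport control (18.2%). None was in N2 static flight over 1g centrifuge (22.2%). The same held for LS292 over N2 in static flight (22.2%) and in the ground control (27.3%). Other readings moved some of these pairs past 2-fold. Without high-background spots miR-55 was 2.06 in N2 static flight over ground control. MiR-56 was then 0.423 in N2 static flight over 1g centrifuge. With miR-55 left out of the constant, miR-52 was 0.437 in LS292 ground control over no-transport control. MiR-55 was then 2.67 in N2 1g centrifuge over ground control and 0.341 in LS292 over N2 on the 1g centrifuge. In N2 the ground control over the no-transport control gave scaled ratios of 0.347 for miR-55, 0.303 for miR-56 and 0.434 for miR-52, and 5 of 10 probes (50%) were 2-fold apart there. In that pair the scaled spots of these members did not overlap, as for 40% of probes, but before scaling their ratios were 0.637, 0.556 and 0.794. Scaled without high-background spots they were 0.605, 0.489 and 0.777, so that only miR-56 was still 2-fold apart. In LS292 the same comparison gave 0.891 for miR-55 and 0.551 for miR-52. Among members at 50 or more on both arrays, miR-56 alone was 2-fold apart in N2 1g centrifuge over ground control (2.00, background 25%), in LS292 static flight over 1g centrifuge (2.65, background 55.6%) and in LS292 over N2 on the 1g centrifuge (0.394, background 33.3%), where no member had its scaled spots apart (8.33%). MiR-55 was 2-fold apart in LS292 over N2 in the no-transport control (0.463, background 33.3%). Without high-background spots miR-55 in LS292 over N2 was 0.870 there and miR-56 in LS292 static flight over 1g centrifuge was 1.62, both under 2-fold, while the other miR-56 ratios were 2.36 and 0.390. Where the lower array was under 50 and is set to 50, a ratio is a lower bound for the array constants used. The scaled level of miR-52 was at least 2.32-fold higher in LS292 static flight than on the LS292 1g centrifuge. On the 1g centrifuge it was at least 1.81-fold lower in LS292 than in N2. In LS292 it was at least 1.59-fold lower on the 1g centrifuge than in the ground control. Without high-background spots these bounds on miR-52 were 1.42, 1.62 and 1.59. With miR-55 left out of the constant they were 2.24, 3.23 and 1.59. The scaled level of miR-56 was at least 2.58-fold lower in LS292 than in N2 in the no-transport control, where it read 76.5 in LS292 without high-background spots (ratio 1.11). The scaled spots of miR-55 in LS292 and N2 no-transport control did not overlap (as for 33.3% of probes), nor did those of miR-56 in LS292 static flight over 1g centrifuge (44.4%), in LS292 1g centrifuge over ground control (ratio 0.521, 50%) and in LS292 over N2 in the ground control (ratio 1.52, 9.09%). Before scaling 3 member pairs were 2-fold apart. They were N2 1g centrifuge over ground control for miR-55 (2.02) and miR-56 (2.12), and LS292 over N2 on the 1g centrifuge for miR-56 (0.466). No share over all named probes is given before scaling, so this count stands without a background.

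Comparisons over both strains were fitted with limma on quantile-normalized log2 values of the 20 probes past the minimum, in an additive model of strain and condition, with Benjamini-Hochberg adjustment over all 20. A response of only 1 strain enters the error of this model. In bulk RNA, fewer cells that make a miRNA and less of it per cell cannot be told apart. Only miR-52, miR-55 and miR-56 entered, and none passed an adjusted p of 0.05 in any of the 6 comparisons. A miss of the threshold at this size does not show that levels were alike, as the standard errors below show. These errors belong to the normalized scale, where an offset added before the log2 compresses differences between low intensities. Before quantile normalization, no signal corresponded to log2 7.301 in the N2 no-transport control and 8.34 in the N2 ground control. For static flight against the ground control, scaled spot medians gave wider standard errors: 0.43 for miR-52, 0.46 for miR-55 and 0.60 for miR-56.

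Static flight was set against the ground control for radiation and microgravity together. MiR-55 differed by log2 0.27 (SE 0.23), miR-56 by 0.081 (SE 0.15) and miR-52 by -0.024 (SE 0.18), each with a limma adjusted p of 0.991. The members called were 0 of 3, against 0 of 20 probes (0%), with 0 of 20 at an unadjusted p under 0.05, and the median difference was 0.081 for the members and 0.017 for all 20. With N2 static flight left out, so that the lone LS292 static array is assumed to vary like the others, the differences were 0.27 for miR-55, -0.036 for miR-56 and 0.093 for miR-52. MiR-56 and miR-52 thus turned direction, and miR-55 turned to -0.090 without the N2 ground control array. Other settings raised miR-55, to 0.62 without the LS292 ground control array and to 0.71 without high-background spots (SE 0.26, limma adjusted p 0.857). On the scaled scale miR-55 was higher in N2 by log2 0.41 and in LS292 by 0.011.

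The 1g centrifuge was set against the ground control for flight without weightlessness. MiR-55 differed by log2 0.34 (SE 0.23, limma adjusted p 0.608), miR-56 by -0.15 (SE 0.15, adjusted p 0.846) and miR-52 by -0.14 (SE 0.18, adjusted p 0.846). The members called were 0 of 3, against 1 of 20 (5%), and their median was -0.14 against -0.011 over all 20. Most of the miR-55 value came from N2. Its scaled log2 difference was -0.033 in LS292 and 0.93 in N2, and without the N2 ground control array the fitted value was -0.017. MiR-56 differed by -0.15 in both strains on the normalized scale, but by -0.94 in LS292 and 1.003 in N2 on scaled spot medians. The scales also differ in spot summary, since normalized values average the spots of a probe and scaled values use their median. On the N2 1g centrifuge array a high-background spot of miR-56 read -662, against a spot median of 111.5. The fitted miR-56 difference turned to 0.056 with the median of spots and to 0.050 without high-background spots. The share of that spot in the contrast by strain was not tested. The differences between strains were not tested either.

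Static flight was set against the 1g centrifuge for microgravity within the flight, though the slots also differed in dose. MiR-56 differed by log2 0.23 (SE 0.15, limma adjusted p 0.620), miR-52 by 0.12 (SE 0.18, adjusted p 0.874) and miR-55 by -0.073 (SE 0.23, adjusted p 0.909). None of the 3 members was called, against 1 of 20 (5%), and the medians were 0.12 for the members and 0.0012 for all. Without the N2 static flight array the values were 0.11 for miR-56, 0.23 for miR-52 and -0.072 for miR-55. With high-background spots left out miR-55 turned to 0.33 (SE 0.26, limma adjusted p 0.586) and miR-56 to -0.045.

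The ground control was set against the no-transport control for travel, site and hardware, which cannot be told apart here. MiR-55 had the largest fitted difference of any member in any of the 6 comparisons, log2 -0.49 (SE 0.23, limma unadjusted p 0.0741, adjusted p 0.328). The limma adjusted p was 0.892 for both miR-56 (log2 0.10, SE 0.15) and miR-52 (log2 -0.065, SE 0.18). The members called were 0 of 3, against 0 of 20 (0%), with 1 of 20 at an unadjusted p under 0.05, and the medians were -0.065 for the members and 0.026 for all. The miR-55 difference was negative under each of 20 alternative settings, between -1.37 with plain background subtraction and -0.13 without the N2 ground control array. Some of these settings cannot change it in this balanced model, such as the probe filters, fewer model terms or a flight array left out. Leaving out the LS292 ground control array gave -0.84 (SE 0.19, limma adjusted p 0.0464), the 1 call among 342 values of the members over all alternatives and comparisons. N2 carried most of this difference too, with scaled log2 differences of -0.17 in LS292 and -1.53 in N2.

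**Figure D4:**
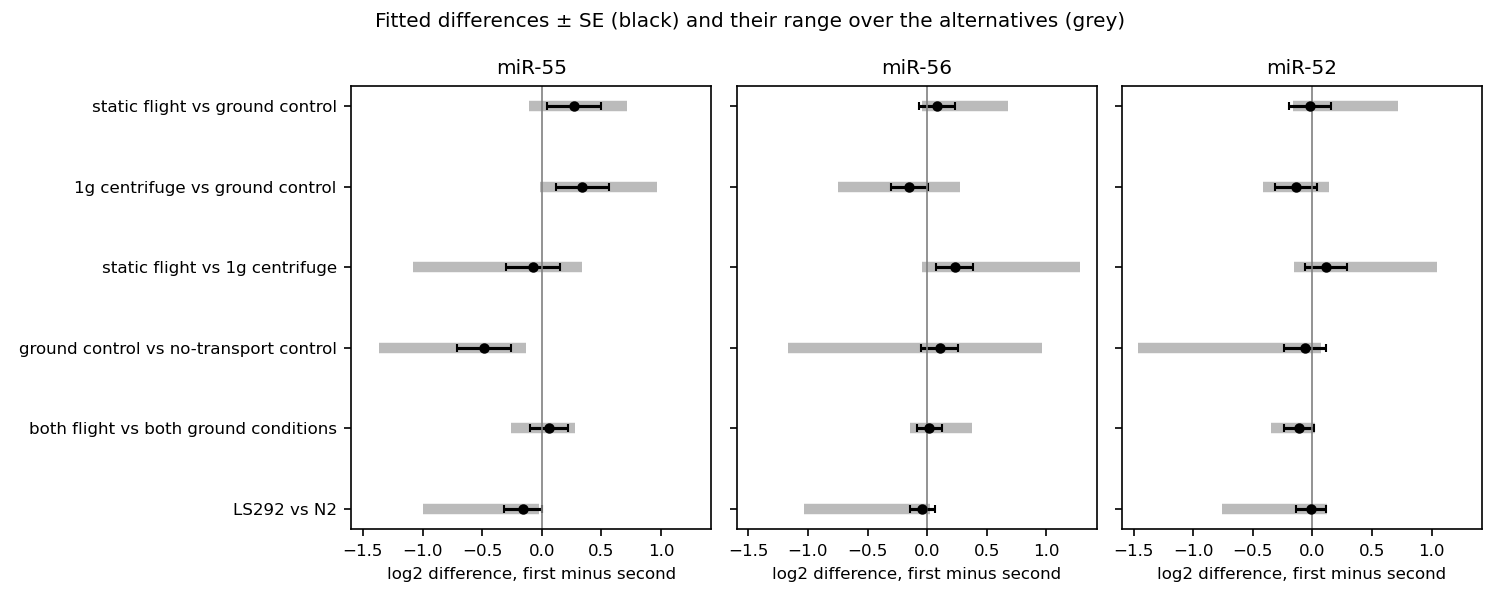
Fitted log2 differences of miR-55, miR-56 and miR-52 with their standard errors (points and black bars) in 6 comparisons, first group minus second, and the range over the alternative settings (grey bars). The grey bars of miR-55 lie wholly below 0 for ground control against no-transport control and for LS292 against N2, and all other grey bars cross 0.

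Both flight conditions together differed from both ground conditions by log2 0.060 (SE 0.16) for miR-55, 0.018 (SE 0.11) for miR-56 and -0.11 (SE 0.13) for miR-52, each with a limma adjusted p of 0.918. The members called were 0 of 3, against 0 of 20 (0%), with 3 of 20 at an unadjusted p under 0.05, and the medians were 0.018 and -0.013. Without the N2 static flight array miR-55 was 0.060, miR-56 -0.040 and miR-52 -0.056. An exact two-sided permutation test over arrays was also run on the log2 scaled spot median, 4 against 4. The flight and ground arrays were not paired by strain in it, so differences between strains stay in their spread. The smallest possible p with 4 against 4 is 0.0286, and a single p at that level would not pass 0.05 after adjustment over the 6 exact tests. With 1 array left out, for conditions or for strain, 4 arrays were set against 3. No p under 0.05 was then possible, so those p-values could not have passed. In these tests, those of strain included, a spot median under 50 was set to 50 before scaling. This changed miR-52 on the LS292 1g centrifuge array (36.5) and miR-56 on the LS292 no-transport array (46.5). MiR-55 averaged 0.041 ± 0.33 in flight and 0.13 ± 0.67 on the ground (SD, n = 4 each, exact p = 0.857), and the difference was -0.079 without the N2 static flight array (exact p = 0.914). For miR-56 the exact p was 0.971 and for miR-52 it was 0.6, and adjusted over the 6 exact tests each p was 0.971. Without the N2 static flight array the exact permutation p was 0.914 for miR-56 (-0.092) and 0.457 for miR-52 (-0.38). For miR-55 the sign of this difference depended on the reading. It was -0.092 after scaling, 0.29 before scaling (exact p = 0.286), 0.88 before scaling and without high-background spots (exact p = 0.0571), and 0.48 from the foreground (exact p = 0.0857). Those readings were chosen after the data had been seen and none passed 0.05.

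LS292 was set against N2 over the 4 conditions for the dys-1 mutation. MiR-55 differed by log2 -0.16 (SE 0.16) and miR-56 by -0.041 (SE 0.11), both with a limma adjusted p of 0.947, and miR-52 by -0.014 (SE 0.13, adjusted p 0.970). The members called were 0 of 3, against 0 of 20 (0%), with 0 of 20 at an unadjusted p under 0.05. All 3 differences were negative, as were 13 of the 20, and the medians were -0.041 and -0.018. The miR-55 value stayed negative under each of 19 alternatives, between -0.995 and -0.022. The probe filters and fewer model terms among them cannot change this value. Without the N2 static flight array the values were -0.16 for miR-55, 0.018 for miR-56 and -0.073 for miR-52. On the scaled scale miR-55 averaged log2 -0.13 ± 0.089 in LS292 and 0.30 ± 0.66 in N2 (SD, n = 4 each, exact permutation p = 0.343, adjusted p = 0.971), and the difference was -0.53 without the N2 static flight array (exact permutation p = 0.286) and -0.16 without the N2 no-transport array (exact permutation p = 0.686). The size of this miR-55 difference depended on the reading. It was -0.995 with miR-55 left out of the constant (exact permutation p = 0.0571) and -0.33 before scaling (exact permutation p = 0.229). Scaled without high-background spots it was -0.23 (exact permutation p = 0.4). These readings were added after the data had been seen. By condition the scaled miR-55 difference was -0.15 in static flight, -0.72 on the 1g centrifuge, 0.25 in the ground control and -1.11 in the no-transport control. The sign was thus negative in 3 of 4 conditions, and the spread over conditions was wider in N2. The exact tests of strain did not pair the arrays within a condition, so differences between conditions stay in their spread. For miR-56 the mean difference was -0.47 (exact permutation p = 0.343) and for miR-52 it was -0.20 (exact permutation p = 0.657). Without the N2 static flight array they were -0.49 (exact p = 0.4) and -0.12 (exact p = 0.8), and the miR-56 value was -0.19 without the N2 no-transport array (exact p = 0.686).

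The detected members did not follow one pattern across arrays on every scale. Over the 8 arrays Pearson's r of miR-55 with miR-56 was -0.11 on the normalized log2 scale, 0.79 after scaling by the array constant and 0.63 before any scaling. For miR-52 with miR-56 the values were -0.14, 0.77 and 0.43, and for miR-52 with miR-55 they were 0.51, 0.58 and -0.025. Without the N2 static flight array, and in the same order of scales, r was -0.24, 0.81 and 0.65 for miR-55 with miR-56, -0.0022, 0.77 and 0.42 for miR-52 with miR-56, and 0.55, 0.61 and 0.025 for miR-52 with miR-55. These are descriptions with no test, since arrays share brightness and, after scaling, a constant that contains miR-55. The probes whose normalized values were most like those of miR-55 were miR-799 (r 0.76, and 0.68 without the 2 arrays farthest from the median) and miR-787 (0.62, and 0.90). Those most like miR-56 were miR-795, a let-7 family member (0.74, and 0.81), and miR-230 (0.59, and 0.29). Those most like miR-52 were miR-257 (0.55, and -0.21) and miR-787 (0.54, and 0.42), so the first of these rested on 2 arrays.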

How the data were processed

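Per the labels, each array received 1 µg of total RNA carrying the Hy3 dye. The authors deposited, per the file headers, a foreground intensity and an intensity minus local background for 10080 spots per array. Their probe table equals the median of the 4 spots for 100% of 2314 probes, and their normalized values are a ratio to 1 constant per array. The authors' deposited table also gives fold changes. Image software is not given in the sources used here.

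Intensities were background-corrected with limma 3.58.1 in R 4.3.3 (normexp, offset 50), taken to log2, averaged over spots and quantile normalized over 156 named probes. Probes with a spot median of at least 50 on 2 of 8 arrays were fitted (3 residual degrees of freedom), with a threshold of 0.05. Array number limits the precision. The fit was tested on simulated data with independent noise and changes larger than any fitted member difference. That test does not give its power for the differences reported here. Alternatives covered background, scaling, spot summary, filters, offset, model terms and arrays left out. Named probes were the members, the 2 probes most correlated with each detected member, and stage and tissue miRNAs. Members and lists were chosen with earlier results of these data known.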

Additional observations from a re-analysis of the deposited data

Results flagged for a closer look

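On the normalized log2 scale the strains had opposite signs for 4 within-strain differences of members detected on all 4 arrays concerned, and none of these differences between strains was tested. For miR-55 the 1g centrifuge minus the ground control was -0.136 in LS292 and 0.815 in N2, and static flight minus the 1g centrifuge was 0.136 in LS292 and -0.281 in N2. Division by the array constant kept these signs, with -0.033 and 0.93 for the first and 0.045 and -0.52 for the second, LS292 before N2. For miR-56 static flight minus the ground control was -0.102 in LS292 and 0.263 in N2, but the scaled values had one sign, 0.47 and 0.84. For miR-52 the ground control minus the no-transport control was 0.022 in LS292 and -0.152 in N2, and the scaled values were both negative, -0.86 and -1.21.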

How the results depend on the processing

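Of 342 log2 differences of miR-52, miR-55 and miR-56 under the alternatives, 61 turned sign and 1 became a call. The 342 include settings that cannot change a given difference, such as the probe filters, so these counts do not measure agreement. The condition term already pairs LS292 with N2 within each condition, and the labels give no replicate number for any other block. The cause of these changes was not tested, and the number of arrays limits every value. Scaling without miR-55 and the other readings of single members were added after the data had been seen.

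Counts past the threshold for the 1g centrifuge against the ground control were 0, where 1 was reported, with background subtraction, the median of spots, scaled spot medians, the authors' values, the 2 conditions alone, high-background spots left out and scaling without miR-55. For static flight against the 1g centrifuge they were 3 with background subtraction and 0 with median scaling, the median of spots, scaled spot medians, the 2 conditions alone, high-background spots left out and scaling without miR-55. For the ground control against the no-transport control they were 1 with the median of spots, scaled spot medians or high-background spots left out, 3 with scaling without miR-55 and 4 with the authors' values. For flight against ground they were 1 with median scaling, no filter or fewer model terms and 2 with the filter on all 8 arrays, and for LS292 against N2 1 with the authors' values or scaling without miR-55. With single arrays left out the counts ran from 0 to 1 for static flight against ground and flight against ground, and from 0 to 2 for the 1g centrifuge against ground, static flight against the 1g centrifuge and ground against no transport.

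Among member differences, static flight against ground turned for miR-52 to 0.43 with background subtraction, 0.052 with median scaling, 0.076 with the median of spots, 0.69 with scaled spot medians and the authors' values, 0.049 without high-background spots and 0.72 with scaling without miR-55, and for miR-55 to -0.11 with background subtraction. The 1g centrifuge against ground turned for miR-56 to 0.056 with the median of spots, 0.032 with scaled spot medians and the authors' values, 0.050 without high-background spots and 0.28 with scaling without miR-55, and for miR-52 to 0.12 with the last. Static flight against the 1g centrifuge turned for miR-56 to -0.0040 with the median of spots and -0.045 without high-background spots, and for miR-55 to 0.33 without those spots. Ground against no transport turned for miR-56 to -0.035 with median scaling, -0.74 with scaled spot medians, -0.68 with the authors' values, -0.063 without high-background spots and -1.16 with scaling without miR-55. Flight against ground turned for miR-52 to 0.0022 with the median of spots and 0.0011 without high-background spots. For miR-55 it turned to -0.25 with background subtraction, -0.079 with median scaling, -0.092 with scaled spot medians and the authors' values and -0.17 with scaling without miR-55. For miR-56 it turned to -0.14, -0.026, -0.00028, -0.0037 and -0.10 with median scaling, scaled spot medians, the authors' values, high-background spots left out and scaling without miR-55. LS292 against N2 turned for miR-52 to 0.089 with background subtraction.

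With single arrays left out, static flight against ground ran from -0.16 to 0.11 for miR-52, -0.090 to 0.62 for miR-55 and -0.045 to 0.21 for miR-56. The 1g centrifuge against ground ran from -0.41 to 0.13 for miR-52 and -0.017 to 0.70 for miR-55, and static flight against the 1g centrifuge from -0.16 to 0.39 and -0.35 to 0.20 for the same members. Ground against no transport ran from -0.20 to 0.072 for miR-52, -0.84 to -0.13 for miR-55 and -0.032 to 0.24 for miR-56. Flight against ground ran from -0.25 to 0.023, -0.12 to 0.24 and -0.049 to 0.086 for the members in that order, and LS292 against N2 from -0.083 to 0.12 for miR-52 and -0.10 to 0.027 for miR-56.

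The minimum of 100 left 1 member, and unscaled intensities left 3 member pairs 2-fold apart and 4 with spot ranges apart, against 7 and 7. The unscaled counts have no background over all named probes beside them. Member pairs 2-fold apart numbered 10 with scaling without miR-55 and 5 without high-background spots. Among the exact permutation tests, flight minus ground turned with unscaled intensities to 0.15, 0.29 and 0.36 for miR-52, miR-55 and miR-56, and without high-background spots to 0.13, 0.88 and 0.25. It was 0.29 for miR-55 scaled without those spots and 0.48 from the foreground. LS292 minus N2, scaled without those spots, turned to 0.16 for miR-52 and 0.049 for miR-56. With single arrays left out, flight minus ground ran from -0.45 to 0.045 for miR-52, -0.27 to 0.23 for miR-55 and -0.25 to 0.32 for miR-56, and LS292 minus N2 from -0.42 to 0.085 for miR-52.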

Other observations

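The probe named miR-56*, the passenger strand of the mir-56 hairpin, is no family member and read 0 of 32 spots at 50 or more. Its highest spot was 28, and its spot medians ran from -111 to 16. In the authors' deposited table, fold changes between pairs of arrays are given in all 16 columns for miR-52 (0.403 to 3.96), miR-55 (0.463 to 2.88) and miR-56 (0.360 to 3.30). For the members whose spot medians stayed under 50 the authors' deposited table gives 2 values for miR-51 (0.474 and 13.8), 9 for miR-53 (0.284 to 11.7) and 7 for miR-54 (0.358 to 6.99). The widest fold changes of the family in that table thus belong to probes near the level of empty spots.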
